A study of Mus musculus with 18 samples.

Results

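The 5 genes described here, Scgb1a1, Scgb3a1, Scgb3a2, Cyp2f2 and Cbr2, are markers of club cells, the secretory cells of the conducting airways. They were taken by gene symbol, with earlier results of these data known, and are 5 of the 18193 gene symbols on the array, each read by 1 of 45037 probe sets. They lie on chromosomes 7, 11, 18 and 19, with Scgb3a1 and Cbr2 both on chromosome 11. Their RNA was measured in fetal lung of BALB/c mice on Affymetrix MOE430 2.0 arrays, 18 in all. Each array held a pool of lung RNA from 3 fetuses of one sex and of distinct litters, and 3 pools were made for each of 6 groups. The groups were males (17 m), females (17 f) and flutamide-treated males (17 flut) at gestational day 17 (GD17), and the same at GD18 (18 m, 18 f, 18 flut). The mothers of 17 flut and 18 flut fetuses had received 1 mg of the antiandrogen flutamide by subcutaneous injection every day from GD10 to the day before harvest, and the mothers of the other groups had received vehicle. No allele was altered, all fetuses were of one strain, and no flutamide-treated females were analysed here. Since whole lung was extracted from pooled fetuses, fewer cells of a type and less RNA per cell cannot be told apart, and the spread between pools is not the spread between single animals.

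Club cells line the bronchioles, secrete small proteins into the airway fluid and carry enzymes that oxidise foreign chemicals. Scgb1a1 (also called CC10), Scgb3a1 and Scgb3a2 encode secretoglobins, small secreted proteins, of which Scgb1a1 is the classical club cell marker and Scgb3a2 appears early in the developing airway. Cyp2f2 is a cytochrome P450 that activates naphthalene, and Cbr2 is a lung carbonyl reductase. All values below are log2 of the RMA signal, a summary of the brightness of the probes of a probe set, so that a difference of 1 unit is a 2-fold difference. Levels of different genes are not set against each other, because each probe set has its own brightness.

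On the mouse reference assembly GRCm38.p6, Scgb1a1 (probe set 1452543_a_at) lies at chr19:9083642-9087956 and Scgb3a1 (1419699_at) at chr11:49663595-49665118. Cyp2f2 (1448792_a_at) lies at chr7:27119955-27133660 and Cbr2 (1418509_at) at chr11:120729485-120732025. Scgb3a2 is read by probe set 1425218_a_at. The 250 bases before the transcript start of RefSeq's promoter table are shown for Scgb3a1, Cyp2f2 and Cbr2. That table held no entry for Scgb1a1, and Scgb3a2 was left out of the search. All 5 members rose between the days, so the genes shown are not set apart from the others by their values. The sequences are those of RefSeq on GRCm38.p6, at chr11:49663345-49663594 on the plus strand, chr7:27119705-27119954 on the plus strand and chr11:120732022-120732271 on the minus strand, and each is written 5′ to 3′ on the strand of its gene. For Cbr2 that start lies a few bases inside the annotated gene, so that its window overlaps the edge of the gene. The assembly is of another strain than the mice measured. Capitals mark TCAAG, a core recognised by NKX2-1, the homeodomain factor of the lung epithelium, or its reverse complement CTTGA.
Scgb3a1: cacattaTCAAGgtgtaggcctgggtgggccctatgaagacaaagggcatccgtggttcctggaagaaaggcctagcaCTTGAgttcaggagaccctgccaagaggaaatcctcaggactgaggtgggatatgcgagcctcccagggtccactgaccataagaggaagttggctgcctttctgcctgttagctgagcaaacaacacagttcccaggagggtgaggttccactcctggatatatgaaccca
Cyp2f2: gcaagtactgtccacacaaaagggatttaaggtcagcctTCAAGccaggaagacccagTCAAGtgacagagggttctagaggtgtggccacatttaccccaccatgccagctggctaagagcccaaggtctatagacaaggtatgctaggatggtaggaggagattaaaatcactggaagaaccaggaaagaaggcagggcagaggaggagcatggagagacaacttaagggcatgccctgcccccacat
Cbr2: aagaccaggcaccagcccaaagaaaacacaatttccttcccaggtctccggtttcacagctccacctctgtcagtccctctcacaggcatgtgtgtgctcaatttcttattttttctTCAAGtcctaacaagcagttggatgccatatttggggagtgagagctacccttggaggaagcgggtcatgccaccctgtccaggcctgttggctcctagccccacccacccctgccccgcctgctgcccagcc
TCAAG stood in all 3 of these windows on either strand, with 2 matches in Scgb3a1, 2 in Cyp2f2 and 1 in Cbr2, and in 35.9% of the 32851 promoter windows of the same length. The letters TNTTTAC of forkhead factors, TTGCNNAA of C/EBP factors and TGTTCT of steroid receptor half-sites were in none of the 3 windows, against 10.9%, 9.56% and 16.1% of all windows. Both strands were searched, and TCAAG shares no base with another searched motif in these windows. A match of so few letters is a description of the sequence.

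Some pools stood apart before any comparison was made. Sftpc, the surfactant protein gene of distal lung epithelium, was between 13.92 and 14.72 and Epcam, an epithelial surface marker, between 10.40 and 11.14 in the 18 pools. The mean of 11 exocrine pancreas genes was 9.77 in 17 m pool 3 and 10.30 and 10.24 in 17 f pools 2 and 3, against 5.61 to 6.10 in the other pools. Genes of squamous epithelium were also high there, with a mean over 11 genes of 7.56, 9.20 and 9.18. Those 2 female pools were nearly alike, with an SD of their difference over brighter probe sets of 0.11, against 0.13 to 0.48 for the other pairs within a group. Whether they share RNA is not known, and if they do, the 17 f group holds 2 independent pools. The mean of 11 liver genes differed widely between pools of most groups. It was highest in 18 m pool 3, at 11.95, and ran from 6.61 in 17 m pool 1 to 10.75 in 18 flut pool 2 elsewhere. In 17 m pool 3 and 17 f pools 2 and 3 it was 10.40, 10.43 and 10.38. In 18 m pool 3 the actin probe sets gave a 3′ minus 5′ difference of 0.80, against 0.34 to 0.49 in the other pools. In 18 flut pool 3 Xist, which is expressed from the inactive X chromosome, was at 11.95, against 8.15 and 8.08 in the other 18 flut pools and 12.33 to 12.51 in 18 f. Y-linked Eif2s3y was at 7.21 in that pool, against 8.04 and 8.16 in the other 18 flut pools and 3.31 to 3.64 in 18 f. The sex label of the pool is therefore in doubt, and the 18 flut values hold as those of flutamide-treated males only as far as the label does. Some results of the members are given with and without these pools, whereas other results and the counts over gene lists are given only with them. The part of these pools in the results was otherwise not tested.

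All 5 genes were higher at GD18 than at GD17 in males, in females and in flutamide-treated males. The rise was 30.6-fold for Scgb1a1 and 14-fold for Scgb3a1 in males, and from 2.25-fold to 4.68-fold for the other members. No pool of GD17 reached any pool of GD18 of the same sex and treatment for any of them. The comparison answers how far the RNA of these 5 genes in whole lung changed from GD17 to GD18. Scgb1a1 and Scgb3a1 were dim in males at GD17. In 17 m pool 3 they were at 5.81 and 6.17, below 6.38, the median of the mean levels of all probe sets. How far such levels stand above background was not tested, so the size of folds that start from them is uncertain. The same levels enter the flutamide and sex differences at GD17.

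Scgb1a1 in males was at 6.69, 7.63 and 5.81 in pools 1 to 3 at GD17 and at 11.54, 11.45 and 11.94 at GD18. Female pools held 7.86, 6.64 and 6.63 at GD17 and 12.02, 11.84 and 11.73 at GD18. In flutamide-treated males the values were 8.84, 8.11 and 8.37 at GD17 and 12.26, 11.90 and 12.38 at GD18. All GD18 pools were high and close together, the GD17 pools of males were low and scattered, and those of flutamide-treated males lay above every other GD17 pool. The day difference was 4.93 in males (limma, standard error 0.37, 95% confidence interval 4.15 to 5.72, adjusted p = 6.65e-07). It was 4.82 in females (adjusted p = 1.38e-07), which is 28.2-fold, and 3.74 in flutamide-treated males (adjusted p = 6.07e-06), which is 13.3-fold. Among the 45037 probe sets, the Scgb1a1 probe set had the highest rise from GD17 to GD18 in each of the 3 groups. The order of its group means was 17 m, 17 f, 17 flut, 18 m, 18 f and 18 flut, and neighbours overlapped except 17 f and 17 flut, and 17 flut and 18 m.

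Scgb3a1, a secretoglobin of the larger airways, was at 6.72, 7.30 and 6.17 in the male pools of GD17 and at 10.65, 10.67 and 10.29 in those of GD18. Its female pools were at 8.36, 6.85 and 6.97 and then at 10.22, 10.57 and 10.25. With flutamide it was at 7.51, 7.39 and 8.28 and then at 10.56, 10.50 and 10.52. The GD18 pools of the 3 groups covered one narrow band, whereas at GD17 single pools of each group overlapped those of others. The day differences were 3.80 (adjusted p = 2.05e-06) in males, 2.95 (adjusted p = 4.32e-06) in females and 2.80 (adjusted p = 2.44e-05) in flutamide-treated males, with a standard error of 0.34. They stood at ranks 3, 13 and 12 of all probe sets in order of the rise. Only the step from 17 flut to 18 f separated neighbours in the order of the group means.

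Cbr2, the carbonyl reductase, was at 9.80, 10.62 and 10.02 in 17 m and at 12.39, 12.33 and 12.40 in 18 m. Pools of 17 f were at 10.60, 10.05 and 10.08, and those of 18 f at 12.82, 12.61 and 12.54. The 17 flut pools were at 10.61, 10.46 and 10.46, and the 18 flut pools at 12.80, 12.37 and 12.80. The groups of a day lay within about 1 unit of each other, 18 m pools were all below 18 f pools, and the days were far apart. Cbr2 rose by 2.23 in males, 2.41 in females and 2.14 with flutamide (standard error 0.18, adjusted p = 1.04e-06, 1.17e-07 and 1.84e-06), which is 4.68-fold, 5.32-fold and 4.42-fold. In the order of the means, 17 m, 17 f and 17 flut overlapped as neighbours, 18 m lay apart from 17 flut and from 18 f, and 18 f and 18 flut overlapped.

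Scgb3a2, the secretoglobin that appears early in airway development, was already bright at GD17, with 12.26, 12.76 and 12.29 in 17 m and 13.59, 13.65 and 13.69 in 18 m. The female pools were at 12.75, 12.38 and 12.38 and at 13.77, 13.71 and 13.66. The pools with flutamide were at 12.86, 12.81 and 12.84 and at 13.80, 13.67 and 13.79. Day differences were 1.20, 1.21 and 0.92 in males, females and the flutamide group (standard error 0.12, adjusted p = 3.7e-06, 7.87e-07 and 3.56e-05), or 2.30-fold, 2.32-fold and 1.89-fold. Its 9 GD18 pools all lay within 13.59 and 13.80. The means rose in the order 17 m, 17 f, 17 flut, 18 m, 18 f and 18 flut, and only 17 flut lay apart from the neighbours on either side of it.

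Cyp2f2, the naphthalene-activating P450, was at 9.36, 9.87 and 9.46 in 17 m and at 10.75, 10.79 and 10.66 in 18 m. Female pools were at 9.57, 9.46 and 9.48 and then at 11.34, 11.12 and 11.11. Pools with flutamide were at 9.68, 9.73 and 9.68 and then at 11.29, 10.97 and 11.45. At GD18 every male pool lay below every female pool and every flutamide pool, and at GD17 the male pools were spread around the others. Cyp2f2 rose by 1.17 in males, 1.69 in females and 1.54 with flutamide (standard error 0.12, adjusted p = 7.05e-06, 1.01e-07 and 1.45e-06), or 2.25-fold, 3.22-fold and 2.90-fold. Its means rose from 17 f over 17 m and 17 flut to 18 m, then to 18 f and 18 flut, with 18 m apart from both neighbours and the others overlapping.

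**Figure D1:**
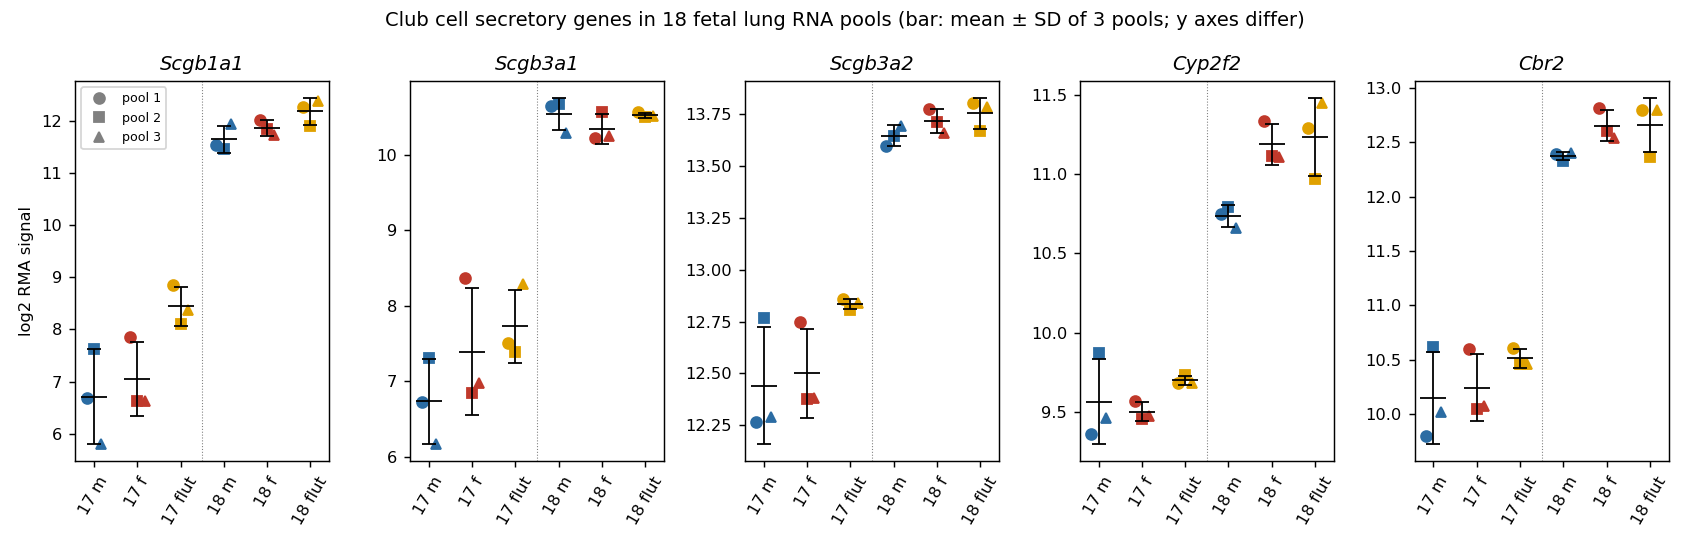
Log2 RMA signal (y axis, a separate scale for each gene) of the 5 genes in the 6 groups (x axis), with 1 point per pool and marker shapes for pool 1, 2 and 3. Black bars are the mean and SD of 3 pools, and the dotted line separates GD17 from GD18. For every gene the 9 GD18 points lie above the 9 GD17 points.

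Thus 5 of 5 members were called higher at GD18 in each group at an adjusted p under 0.05, where 12.4% of all probe sets were called higher in males, 16.5% in females and 9.61% in flutamide-treated males. Groups that did not overlap, in the higher direction, made up 16.7%, 24.6% and 18.3% of all probe sets. The median day difference over the members was 2.23 in males, 2.41 in females and 2.14 in flutamide-treated males, against medians of 0.0053, 0.016 and -0.015 over all probe sets. All 5 calls were kept in each group with any single pool left out. Without the 3 pancreas-high pools, the Scgb1a1 rise was 4.48 in males and 4.0 in females, and that of Scgb3a1 was 3.52 and 1.98, so that the value for Scgb3a1 in females then rested on 1 female pool at GD17.

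The members varied most between pools at GD17. The pooled SD within groups was 0.70 at GD17 and 0.23 at GD18 for Scgb1a1. For Scgb3a1 it was 0.65 and 0.17, for Cbr2 0.31 and 0.17, and for Scgb3a2 0.20 and 0.061. Cyp2f2 alone had the same SD on both days, 0.16.

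The deviations of single pools from their group mean ran together across members. Pool 2 of 17 m was the highest of its group for all 5 genes, by 0.92 above the mean for Scgb1a1, 0.57 for Scgb3a1, 0.47 for Cbr2, 0.32 for Scgb3a2 and 0.30 for Cyp2f2. Pool 1 of 17 f was likewise the highest of its group for all 5, and pool 2 of 18 flut was the lowest of its group for all 5. Over the 18 pools, after group means were taken out, Pearson's r was 0.94 between Scgb3a2 and Cbr2, 0.88 between Scgb1a1 and Scgb3a2, and 0.35 between Scgb3a1 and Cyp2f2, the lowest of the 10 pairs. At GD18 alone Scgb3a1 went against Scgb1a1 (r = -0.49, 9 pools), and its values with the remaining members were between -0.26 and 0.051. The 6 pairs among Scgb1a1, Scgb3a2, Cyp2f2 and Cbr2 had r of 0.55 to 0.89 at GD18. These correlations describe pools that share one normalisation, and no test was made of them.

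The 3 pools high in pancreas genes were among those low in secretoglobins at GD17. Scgb1a1 in these pools was at 5.81, 6.64 and 6.63, and Scgb3a1 at 6.17, 6.85 and 6.97, in each case below or near the other pools of their groups. Over the 18 pools, deviations of the pancreas gene mean and of Scgb1a1 had r = -0.84, and those of the pancreas gene mean and Scgb3a1 r = -0.85, against -0.70 for Scgb3a2, -0.54 for Cbr2 and -0.30 for Cyp2f2. These values rest on the GD17 pools. Over the 9 GD18 pools r was 0.73 for Scgb1a1, 0.63 for Scgb3a2, 0.50 for Cbr2, 0.28 for Cyp2f2 and -0.74 for Scgb3a1. Deviations of the alveolar type II gene mean (15 genes, among them those of the surfactant proteins) had r = 0.93 with Scgb1a1, 0.93 with Cbr2 and 0.61 with Scgb3a1. For the mean of 34 other airway secretory genes, a list described below, r was -0.27 with Scgb1a1, -0.56 with Scgb3a1 and -0.12 with Scgb3a2. It was 0.195 with Cyp2f2 and 0.053 with Cbr2. With Scgb1a1 it was -0.52 over the GD17 pools and 0.945 over the GD18 pools. The mean of 12 pan-epithelial genes had r = -0.054 with Scgb1a1 and 0.043 with Cbr2. At GD17 the pan-epithelial gene mean of the pools lay between 10.30 and 10.47. A mean over 12 genes spreads less than single genes do, so its range is not set against that of a member. What the differences between pools in the member genes come from was not tested.

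**Figure D2:**
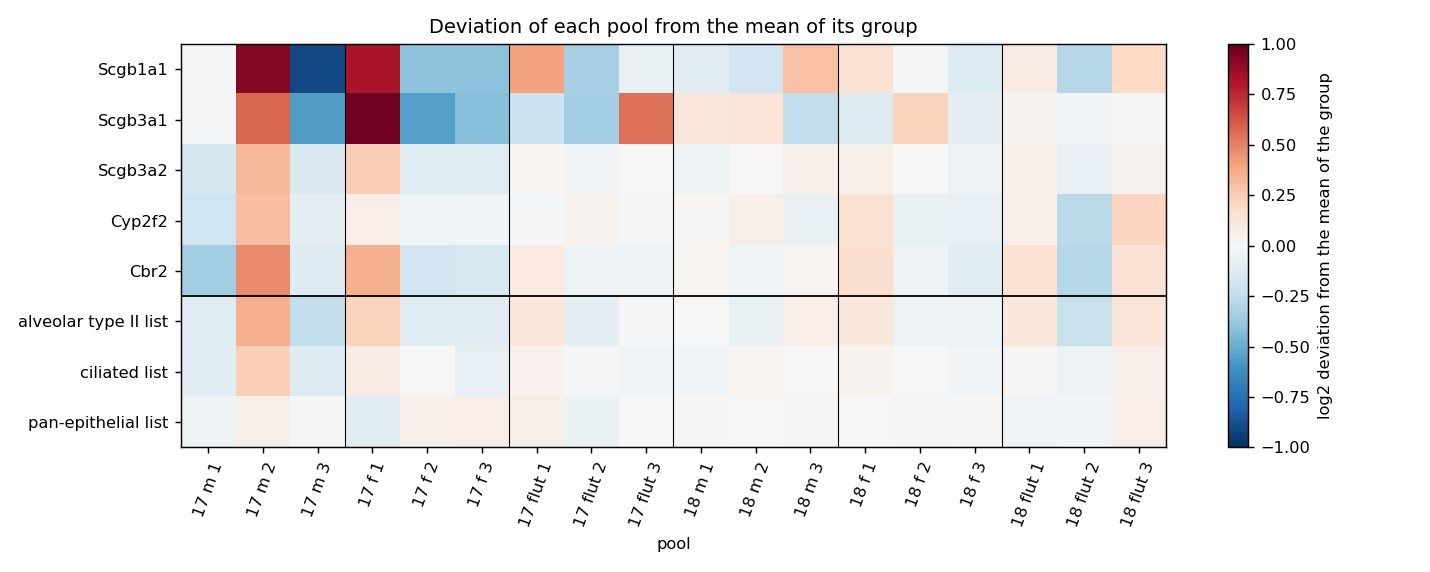
Log2 deviation (colour scale) of each of the 18 pools (x axis) from the mean of its group, for the 5 genes (above the black line) and for the means of 3 gene lists. Pool 17 m 2 is above its group for all 5 genes, by 0.92 for Scgb1a1. The pan-epithelial row stays near 0, but a mean over several genes spreads less than a single gene.

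Flutamide was compared with vehicle in males to ask which genes change when androgen action is blocked. At GD17, Scgb1a1 was 3.33-fold higher in flutamide-treated males and was the only member that passed. Its rise of 1.73 (standard error 0.37, interval 0.95 to 2.52, adjusted p = 0.0191) was the highest of all 45037 probe sets by size, at rank 577 by p. The lowest of the 17 flut pools, at 8.11, was above the highest of the 17 m pools, at 7.63. Called higher were 1 of 5 members and 1.28% of all probe sets.

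Scgb3a1 differed by 1.00 in the same comparison (2.0-fold, interval 0.28 to 1.71, adjusted p = 0.112), with its 17 flut pools above its 17 m pools. Its means were 7.73 ± 0.48 and 6.73 ± 0.57 (SD, n = 3). For Scgb3a2 the difference was 0.39 (interval 0.15 to 0.64, adjusted p = 0.0717), again without overlap of the pools. Cbr2 differed by 0.36 (interval -0.018 to 0.75, adjusted p = 0.269) and Cyp2f2 by 0.13 (interval -0.13 to 0.40, adjusted p = 0.57), and for both genes 17 m pool 2 lay above the flutamide pools. Without 17 m pool 2 Cbr2 was at 0.60 and Cyp2f2 at 0.29, and without 17 m pool 1 they were at 0.19 and 0.032, none of them called. Cyp2f2 was also at 0.083 without 17 m pool 3. In 3 of 5 members, all secretoglobins, the groups did not overlap, against 14.6% of all probe sets in that direction. The median difference over the members was 0.39, against 0.024 over all probe sets.

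The call of Scgb1a1 at GD17 depended on single pools. With 1 pool left out at a time its difference ran from 1.28 to 2.19 and was called in 3 of 6 cases (adjusted p = 0.00475 to 0.0872), the call being lost without 17 flut pool 1, 17 flut pool 3 or 17 m pool 1. Without the pancreas-high pools it was 1.28 (adjusted p = 0.0241), and with only the 2 groups in the fit the adjusted p was 0.0507.

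At GD18 the member that passed was Cyp2f2, which was 1.42-fold higher with flutamide (0.50, standard error 0.12, interval 0.24 to 0.76, adjusted p = 0.0316). The 18 flut pools, at 11.29, 10.97 and 11.45, all lay above the 18 m pools, at 10.75, 10.79 and 10.66. The means were 11.23 ± 0.24 and 10.73 ± 0.0695 (SD, n = 3). Here 1 of 5 members and 0.735% of all probe sets were called higher, and groups without overlap in that direction were 1 of 5 members and 9.26% of all probe sets. Scgb1a1 differed by 0.54 (interval -0.25 to 1.32, adjusted p = 0.49) and Cbr2 by 0.28 (interval -0.10 to 0.66, adjusted p = 0.453). Scgb3a2 differed by 0.11 (interval -0.14 to 0.35, adjusted p = 0.684), and Scgb3a1 by -0.011 (interval -0.73 to 0.71, adjusted p = 0.992). Pools of the 2 groups overlapped for these 4 genes.

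The Cyp2f2 call at GD18 was kept in 1 of 6 cases with a pool left out (values 0.40 to 0.63, adjusted p = 0.00911 to 0.145), that without 18 flut pool 2, and was lost without any other single pool of the 2 groups. Without both 18 m pool 3 and 18 flut pool 3, the pools that stood apart on GD18, the difference was 0.36 (adjusted p = 0.166), and without 18 flut pool 3 alone it was 0.40 (adjusted p = 0.145).

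**Figure D3:**
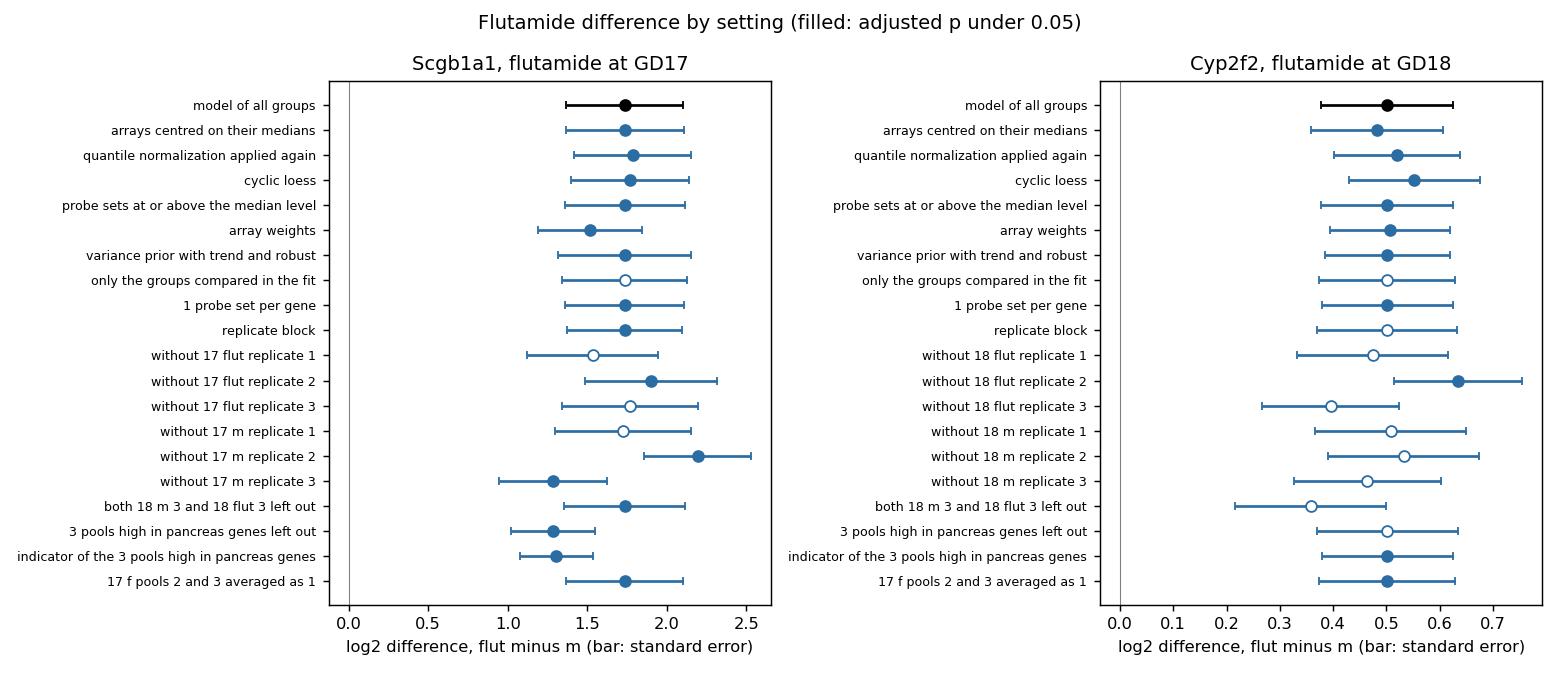
Log2 difference between flutamide-treated males and males (x axis, bars are standard errors) for Scgb1a1 at GD17 and Cyp2f2 at GD18 under each setting (rows). Filled points passed an adjusted p of 0.05. All points lie above 0, from 1.28 to 2.19 for Scgb1a1 and from 0.36 to 0.63 for Cyp2f2, and many are open.

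Whether the flutamide difference changed between the days was tested as an interaction. No member passed, where 0.364% of all probe sets did. Taken as the GD18 difference minus that of GD17, limma gave -1.20 for Scgb1a1 (interval -2.31 to -0.089, adjusted p = 0.383) and 0.37 for Cyp2f2 (interval -0.0023 to 0.74, adjusted p = 0.427). Scgb1a1 was the 1 member with an unadjusted p under 0.05, against 11.8% of all probe sets, so that a call on one day and not on the other is not shown to be a difference between the days.

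Males and females were compared to ask for a sex difference in vehicle-treated lungs. No member passed at GD17, where 4.1% of all probe sets did, and none had an unadjusted p under 0.05, against 16.4% of all probe sets. Scgb1a1 was lower in males by -0.34 (interval -1.12 to 0.45) and Scgb3a1 by -0.66 (interval -1.38 to 0.056), and their pools overlapped. Without 17 f pool 1 the value of Scgb3a1 was -0.18 (adjusted p = 0.825), and without 17 m pool 3 it was -0.38 (adjusted p = 0.657). Differences of the other members were from -0.094 for Cbr2 to 0.064 for Cyp2f2. With a term for the 3 pools high in pancreas genes, Scgb3a1 passed, at -1.04 (adjusted p = 0.0165), and without these pools it was at -1.35 (adjusted p = 0.0681). The latter rests on 1 female pool, which is assumed to vary like the pools of the other groups.

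No member passed between the sexes at GD18 either, where 1.85% of all probe sets did, and 1 member, Cyp2f2, had an unadjusted p under 0.05, against 14.3% of all probe sets. Cyp2f2 was at -0.45 in males relative to females (interval -0.72 to -0.19, adjusted p = 0.0719), and the highest male pool, at 10.79, was below the lowest female pool, at 11.11. It passed after renewed quantile normalisation (-0.48) and under 5 other settings, a threshold of 0.1 among them. With single pools left out it was called in 0 of 6 cases (-0.49 to -0.38, adjusted p = 0.0858 to 0.3), and without 18 m pool 3 it was -0.42 (adjusted p = 0.0858). Cbr2 differed by -0.28 (interval -0.66 to 0.10, adjusted p = 0.535), with no overlap of the pools. Groups without overlap and lower in males were 2 of 5 members and 7.33% of all probe sets. The other members differed by -0.22 for Scgb1a1, 0.19 for Scgb3a1 and -0.070 for Scgb3a2. In the test of sex by day no member passed, against 6.54% of all probe sets, and Cyp2f2 had -0.52 (interval -0.89 to -0.15, adjusted p = 0.0941).

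The Cyp2f2 difference from males at GD18 was thus 0.50 for flutamide-treated males and 0.45 for females on the same scale, and both values use the same 3 male pools. Flutamide-treated males and females at GD18 were set against each other directly. For Cyp2f2 they differed by 0.047 (interval -0.21 to 0.31, adjusted p = 0.961), and no member passed, against 0.278% of all probe sets. At GD17, Scgb1a1 was 2.64-fold higher with flutamide than in females (a difference of 1.4, adjusted p = 0.0452), the 1 of 5 members called higher, against 2.66% of all probe sets. The value was 0.58 (adjusted p = 0.64) without the pools high in pancreas genes, which leaves 17 f pool 1 alone, assumed to vary like the pools of the other groups, and 1.19 (adjusted p = 0.177) with 17 f pools 2 and 3 averaged as 1. Scgb3a2 differed by 0.33 in that comparison (adjusted p = 0.104).

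**Figure D4:**
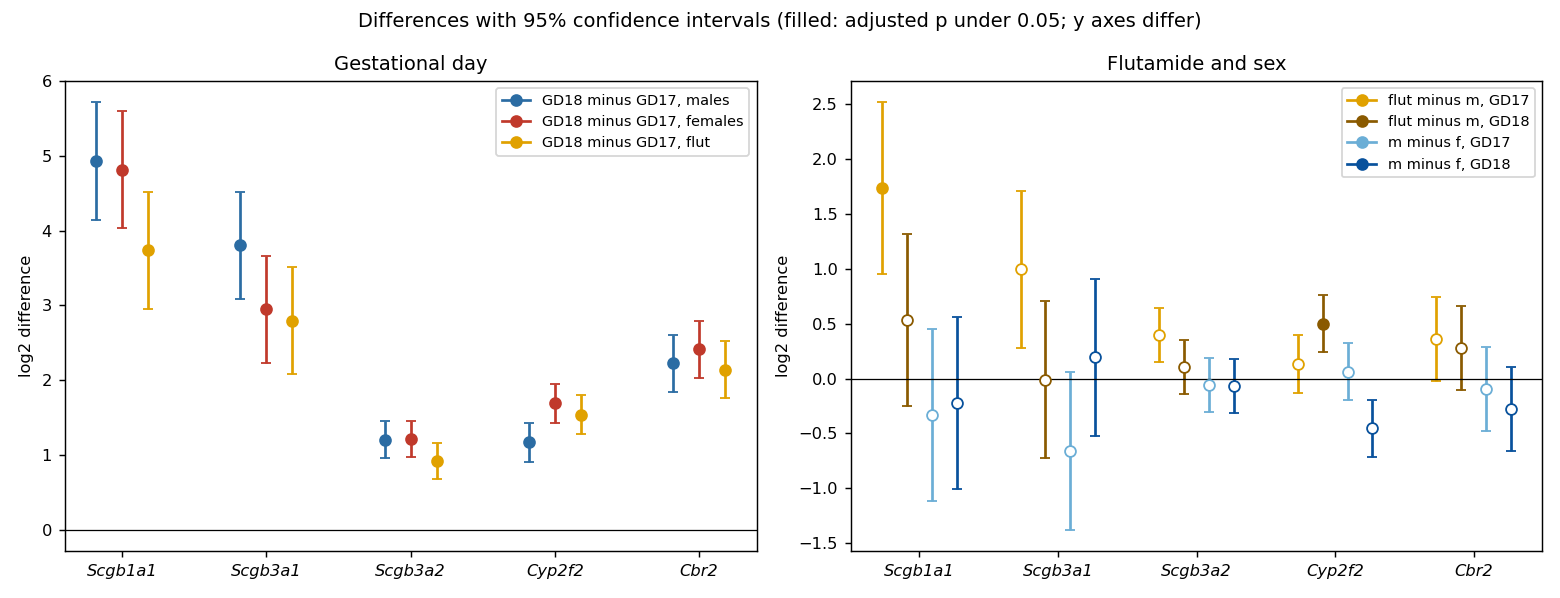
Log2 differences with 95% confidence intervals (y axes, separate scales) for each gene (x axis), for GD18 minus GD17 in 3 groups on the left, and for flutamide minus vehicle and male minus female at each day on the right. Filled points passed an adjusted p of 0.05. All 15 day differences are filled, whereas on the right only Scgb1a1 at GD17 (1.73) and Cyp2f2 at GD18 (0.50), both for flutamide, are.

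Other genes of airway secretory cells were counted from a list of 36 genes, of which 34 had a probe set with 1 symbol. From GD17 to GD18, 18 rose and 1 fell in males, 18 rose and 4 fell in females, and 17 rose and 1 fell in flutamide-treated males. The median differences of the list were 0.58, 0.66 and 0.66. Over all 45037 probe sets, 12.4%, 16.5% and 9.61% were called higher in these groups. Called in either direction were 11266, 15112 and 9129 probe sets. The counts in females, here and in the lists that follow, use 17 f pools 2 and 3, which were high in pancreas genes, and the list mean deviated by 0.077 and 0.12 in these pools and by -0.19 in 17 f pool 1. Retnla, a secreted resistin-like protein, was 13.1-fold higher in males, 13.8-fold in females and 7.52-fold in flutamide-treated males. Hp, encoding haptoglobin, was 5.55-fold, 5.25-fold and 3.41-fold higher, and Sec14l3, a lipid-binding protein, 2.69-fold, 3.37-fold and 2.16-fold.

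Fmo2, a flavin monooxygenase of lung, rose 3.02-fold in males, 3.55-fold in females and 2.10-fold in flutamide-treated males. Ephx1, the microsomal epoxide hydrolase, rose 1.69-fold, 1.75-fold and 1.74-fold, and Selenbp1, a selenium-binding protein, 2.40-fold, 2.77-fold and 2.11-fold. Aldh1a7, an aldehyde dehydrogenase, was the gene of the list that fell in all 3 groups, by 0.29 in males, 0.54 in females and 0.25 in flutamide-treated males. The list thus had 1 gene, Retnla, with a rise of more than 3 units in males and females, as Scgb1a1 had. Between the sexes none of the 34 genes passed on either day, where 4.1% of all probe sets passed at GD17 and 1.85% at GD18. With flutamide at GD17, 2 were higher, Sec14l3 by 0.53 (adjusted p = 0.0277) and Hp by 0.81 (adjusted p = 0.0392), and at GD18 Aldh1a1 was, by 0.27 (adjusted p = 0.0455). Of all probe sets 1.28% were called higher with flutamide at GD17 and 0.735% at GD18.

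**Figure D5:**
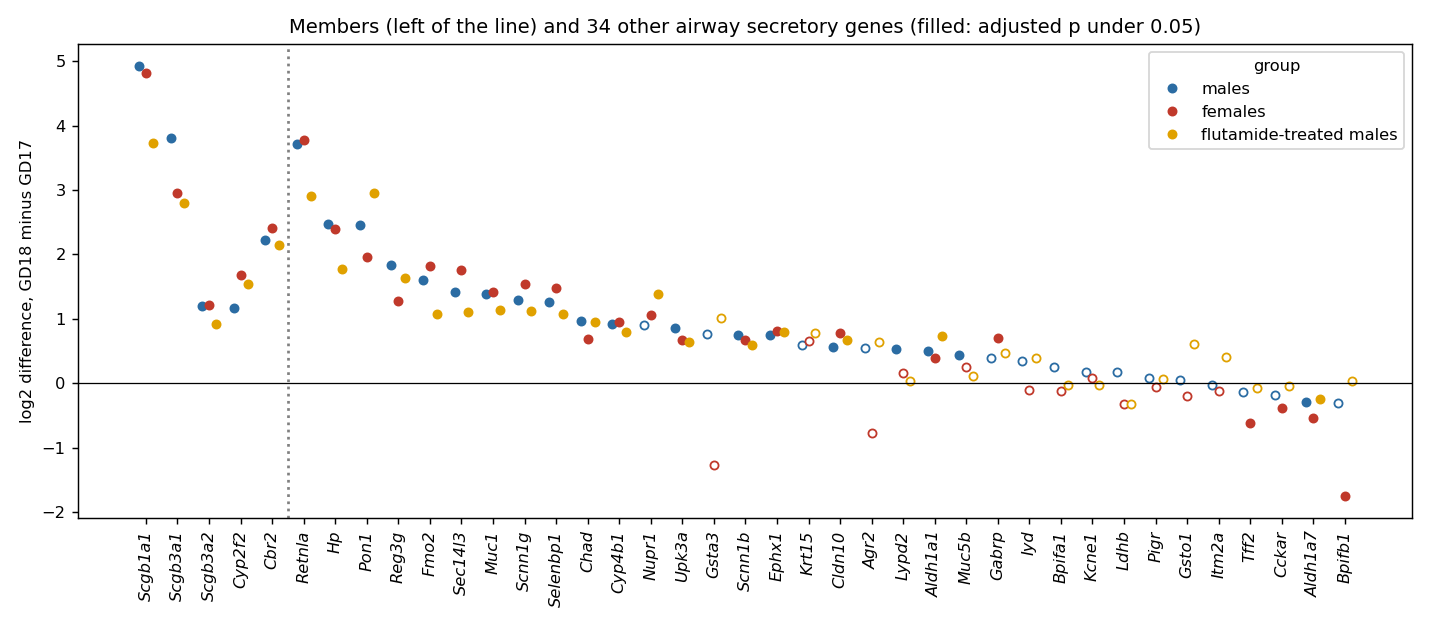
Log2 difference between GD18 and GD17 (y axis) for the 5 genes (left of the dotted line) and 34 other airway secretory genes (x axis, in the order of the difference in males), in 3 groups (colours). Filled points passed an adjusted p of 0.05. Scgb1a1 stands highest in each group, and of the other 34 genes 18 rose in males, where 12.4% of all probe sets did.

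Of 19 measured genes of xenobiotic metabolism, 5 rose in males, 7 rose and 4 fell in females, and 8 rose in flutamide-treated males. Of all probe sets 12.4%, 16.5% and 9.61% were called higher, and in females 15112 of 45037 were called in either direction. Cyp2e1, a P450 that oxidises small solvents, rose by 2.58, 2.31 and 2.33, and Ces1d, a carboxylesterase, by 1.85, 1.79 and 1.31. Cbr1 and Cbr3, the other carbonyl reductases listed, gave other values than Cbr2. They were at -0.063 and 0.014 in males and passed with a fall in females, by 0.28 and 0.43. With flutamide at GD17, Ces1d was higher by 0.78 (adjusted p = 0.0107) and Cyp2b10 by 0.46 (adjusted p = 0.0438).

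Among 22 listed transcription factors and Notch pathway genes of the lung, 13 rose and 2 fell in males and in females. In flutamide-treated males 8 rose and 1 fell. The shares of all probe sets called higher were 12.4%, 16.5% and 9.61% in males, females and flutamide-treated males. The listed genes are not all particular to the airway, Hopx among them. Hopx, a homeodomain protein without DNA contact of its own, rose by 1.63 in males, 1.63 in females and 1.10 in flutamide-treated males. Cebpa rose by 1.32, 0.95 and 0.83, and Cebpd by 1.11, 1.4 and 1.13, both encoding C/EBP factors. Sox2, a factor of the proximal airway, fell by 0.58 in males and 0.60 in females. Nkx2-1, whose core letters are in the promoter windows shown above, was at -0.13 in males, 0.21 in females and 0.26 in flutamide-treated males. It did not pass, nor did Foxa1 and Foxa2. The Nkx2-1 probe set was dim, with a mean of 6.24 against a median of 6.38 over all probe sets. The lack of a call therefore does not show that Nkx2-1 RNA stayed constant. With flutamide, Hopx was higher at GD17 by 0.59 (adjusted p = 0.0251), and Nfia, a nuclear factor I gene, was lower at GD18, at -0.32 (adjusted p = 0.0255).

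Genes of neighbouring epithelial cells rose over the same day. Of 16 genes of ciliated cells, the other main cell type of the airway surface, 14 rose in males, 15 in females and 10 in flutamide-treated males, by a median of 0.85, 0.85 and 0.42. Of 15 alveolar type II genes, 14, 13 and 14 rose, by a median of 1.85, 1.92 and 1.64. Of all probe sets 12.4%, 16.5% and 9.61% were called higher in the same groups. Of 12 pan-epithelial genes 7 rose and 2 fell in males, and their mean was 10.30 to 10.47 in the GD17 pools and 10.48 to 10.60 in the GD18 pools. Since rises and falls offset each other in that mean, its shift is not set against that of a member. With flutamide at GD17, 5 of the 16 ciliated genes and 5 of the 15 alveolar type II genes were higher and none was lower, beside the higher Scgb1a1. Of all probe sets 1.28% were called higher in that comparison. At GD18 none of either list was higher, where 0.735% of all probe sets were, and 1 ciliated gene, Ccdc39, was lower by -0.45 (adjusted p = 0.0497). The ciliated mean was 5.96 to 6.32 in 17 m and 6.44 to 6.52 in 17 flut, and the alveolar type II mean 9.44 to 10.05 in 17 m and 10.08 to 10.29 in 17 flut. The part of these cells in the member differences was not tested.

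Genes with profiles most like each member were named by Pearson's r over the 18 pools, among 19604 brighter probe sets with 1 symbol. Scgb1a1 was most like Sftpa1 (r = 0.998), Slc34a2 and Napsa, and Scgb3a2 most like Slc34a2 (r = 0.997), Napsa and Sftpa1. Cbr2 was most like Igfbp6 (r = 0.998), Cxcl15 and Aqp1, Cyp2f2 most like Aldh6a1 (r = 0.990), Cav1 and Anxa3, and Scgb3a1 most like 1700094D03Rik (r = 0.981), Cxcl15 and Sftpd. For the mean of the 5 members the nearest were Cxcl15 (r = 0.998), Sftpa1, Ager, Chia1 and Sftpd. These values are set mainly by the step between the days, which all of these genes share. Within a day the likeness of Sftpa1 and Scgb1a1 was 0.99 over the 9 pools of GD17 and 0.90 over those of GD18, whereas that of Sftpd and Scgb3a1 was 0.80 and -0.49. Ranked by Spearman's rho, 2 of the 3 genes named for Cbr2 and 2 of the 5 named for the mean were named again, and none of those of the other 4 members.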

How the data were processed

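Total RNA of fetal lung was pooled from 3 fetuses per array and hybridised to 18 Affymetrix MOE430 2.0 arrays. The authors corrected and normalised the arrays by RMA, and the deposited values are intensities on a linear scale from 6.61 to 30228, of which log2 was taken. No detection calls were used, and precision is limited by how many arrays there are. Of 45101 probe sets, 64 controls were left out; 34945 had 1 gene symbol, 932 several and 9160 none.

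Groups were taken from the sample labels. One model with 6 group means was fitted by limma 3.58.1 in R 4.3.3 (lmFit, eBayes) on all 18 arrays, with Benjamini-Hochberg adjustment over 45037 probe sets and calls at an adjusted p under 0.05. The script was tested on simulated data. Labels call the pools biological replicates of different individuals.

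The members and gene lists were chosen with earlier results of these data known. Named were all members, up to 6 called genes per list with the smallest p, in the probe set of highest mean, and the 3 genes (5 for the mean) most correlated with each member. Nkx2-1, Foxa1, Foxa2, Sftpc, Epcam, Xist, Eif2s3y, Cbr1, Cbr3, Aldh1a7, Sox2 and the list genes that passed in the other groups or days were named after their values were seen. Alternatives were other normalisations, array weights, a minimum mean brightness, another variance prior, fewer groups, 1 probe set per gene, a replicate block, a threshold of 0.1 and each pool left out. Settings for pools that stood apart were chosen after seeing the data. Replicate numbers were not taken as pairs in the model. Over 45 same-number pairs the deviations correlated at -0.352 to 0.452, and 14 pairs were above 0.1. Pairs of different numbers were not computed, so these values cannot settle whether the numbers pair the samples.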

Additional observations from a re-analysis of the deposited data

How the results depend on the processing

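The 15 day differences of the members were called in every setting tried. Of the flutamide differences in males, Scgb1a1 at GD17 (1.73) lost its call with only the compared groups in the fit, and so did Cyp2f2 at GD18 (0.50, adjusted p = 0.219), which also lost it with a replicate block (adjusted p = 0.0541), without the 3 pools high in pancreas genes (adjusted p = 0.0619) and without 18 m pool 3 and 18 flut pool 3 (0.36). In these cases of an unchanged value the standard error or the number of probe sets called set the adjusted p. Scgb1a1 of flutamide-treated males against females at GD17 (1.4) lost its call with the trended robust prior, with the replicate block (adjusted p = 0.0532), without the pancreas-high pools (0.58), with a term for them (0.54) and with 17 f pools 2 and 3 averaged (1.19). The replicate block changed no other call. Cyp2f2 between the sexes at GD18 (-0.45) gained a call with the brightness filter, the trended robust prior and the 0.1 threshold, and with quantile normalisation (-0.48), cyclic loess (-0.50) and array weights (-0.41). Its sex by day value (-0.52) passed with array weights (-0.53) and at 0.1. Scgb3a2 with flutamide at GD17 (0.39) passed at 0.1, and against females (0.33) with array weights (0.38). With a term for the pancreas-high pools, Scgb3a1 passed for sex at GD17 (-1.04) and sex by day (1.24). The cause of these changes was not tested.

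Small differences that were not called changed sign. Cbr2 against females at GD18 (0.0025) became -0.0016 with median centring, -0.010 with quantile normalisation, -0.00091 with cyclic loess and -0.070 without 18 m pool 3 and 18 flut pool 3, where Cyp2f2 (0.047) became -0.059 and Scgb1a1 sex by day (0.11) became -0.033. Scgb3a1 with flutamide at GD18 (-0.011) became 0.023 with quantile normalisation and 0.037 with cyclic loess. With array weights, sex at GD17 became 0.034 for Scgb1a1, 0.042 for Scgb3a2 and 0.046 for Cbr2, Scgb1a1 sex by day -0.41 and Cbr2 flutamide by day 0.060. Scgb3a2 sex by day (-0.0088) became 0.033 with median centring, 0.16 without the pancreas-high pools, 0.090 with a term for them and 0.053 with the 2 female pools averaged. Without the pancreas-high pools, Scgb3a1 and Cbr2 against females at GD17 became -0.63 and -0.083, and Cbr2 sex by day 0.11. With the term, Scgb3a1 became -0.43 and Cbr2 flutamide by day 0.037.

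When single pools were left out, the flutamide values ran from 1.28 to 2.19 for Scgb1a1, 0.31 to 0.56 for Scgb3a2 (called without 17 m pool 2 alone), 0.19 to 0.60 for Cbr2 and 0.032 to 0.29 for Cyp2f2 at GD17, and from 0.40 to 0.63 for Cyp2f2 and -0.13 to 0.055 for Scgb3a1 at GD18. Against females they were 1.19 to 1.81 for Scgb1a1 (called without 17 f pool 1 alone) and 0.27 to 0.46 for Scgb3a2 at GD17, and -0.059 to 0.18 for Cyp2f2 and -0.070 to 0.15 for Cbr2 at GD18. For sex at GD17 they were -0.80 to 0.11 for Scgb1a1, -0.22 to 0.062 for Scgb3a2, -0.089 to 0.17 for Cyp2f2 and -0.33 to 0.083 for Cbr2, and Scgb3a1 stayed at -0.95 to -0.18. For sex by day they were -0.34 to 0.57 for Scgb1a1, -0.13 to 0.15 for Scgb3a2 and -0.36 to 0.052 for Cbr2, and for flutamide by day -0.32 to 0.090 for Cbr2 and -1.66 to -0.75 for Scgb1a1 (the latter without 17 m pool 3). The ranges of counts that follow are over the settings other than single pools left out. Those settings include the threshold of 0.1 and fits on fewer probe sets, so the counts in a range differ in threshold or in number tested. In the model of all groups the count called with flutamide was 1600 at GD17 (345 to 3952 over these settings) and 1777 at GD18 (146 to 5680), and between the sexes 1845 (142 to 3535) and 834 (18 to 4794). Against females flutamide-treated males had 1977 (17 to 8664) and 125 (25 to 749), the day gave 11266 in males (4764 to 13981), 15112 in females (7521 to 18471) and 9129 in flutamide-treated males (5393 to 12906), and the interactions with day 2944 for sex (736 to 5837) and 164 for flutamide (0 to 685). The number of arrays, 3 a group, limits what could be detected.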

Other observations

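Known target genes of the glucocorticoid receptor rose over the same day as the members. All 10 listed genes rose in males and in females and 9 in flutamide-treated males, and their mean was 8.95 to 9.33 in 17 m and 9.93 to 10.13 in 18 m. Of 11 alveolar type I genes, 9 rose in males, 8 in females and 9 in flutamide-treated males, and 1 fell in each group. For both lists, the shares of all probe sets called higher were 12.4%, 16.5% and 9.61% in these groups.

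Lists of other cell types of the airway wall were counted in the same way. Over all probe sets 12.4% were called higher in males, 16.5% in females and 9.61% in flutamide-treated males. Of 6 basal cell genes none passed in males or flutamide-treated males and 1 fell in females. Of 7 measured neuroendocrine genes, 1 rose and 1 fell in males and in flutamide-treated males and 5 fell in females, where 17 f pools 2 and 3 are among the pools high in pancreas genes. Of 12 tracheal cartilage genes, 3 fell in males, 2 rose and 1 fell in females and 2 fell in flutamide-treated males.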
